A study of Mus musculus with 4 samples.

Results

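The nuclear-encoded subunits of the mitochondrial respiratory chain were followed over 4 expression arrays of sorted mouse small intestinal cells. The genes were taken by symbol: every array feature with 1 gene symbol of the Nduf (a, b, c, s and v), Sdh, Uqcr, Cox4 to Cox8 and Atp5 families was eligible, platform symbols ending as pseudogenes were left out (Atp5l2, which RefSeq lists as a pseudogene, passed by its platform symbol), and the brightest feature, by its mean, stood for its gene. This gave 81 of the 30701 genes measured, from 85 features: 33 of complex I, 4 of complex II, 8 of complex III, 18 of complex IV and 18 of complex V. The symbol rule itself uses no measured difference.

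The study set cells labelled as intestinal stem cells beside cells labelled as non-stem, and asked about the long noncoding RNA LncGata6 and the transcription factor Ehf. There was 1 Affymetrix Clariom D mouse array per group: GFP-positive cells of LncGata6 mutant mice, GFP-positive cells of Ehf knockout (Ehf-/-) mice, GFP-positive cells of wild-type mice and GFP-negative cells of wild-type mice, called the LncGata6 mutant, Ehf knockout, wild-type stem and non-stem arrays here. All mice carried Lgr5GFP-CreERT2, in which the promoter of the crypt stem cell receptor gene Lgr5 drives GFP together with an inducible Cre, and were 8 weeks old. The design text describes a sort for GFP from isolated crypts, while the collection protocol of every sample names a sort for ILCreg cells from the small intestine, so the gate of each sample is not settled, and the number of animals behind an array is not given. Neither the nature of the LncGata6 mutation nor that of the Ehf allele is stated. With 1 array per group there is no replicate spread, no test and no p-value, and each difference below describes those arrays. In bulk samples of this kind, fewer cells of a type and less RNA per cell cannot be told apart.

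The respiratory chain passes electrons from NADH through complex I and from succinate through complex II to ubiquinone, then through complex III and cytochrome c to complex IV, which reduces oxygen. Complexes I, III and IV move protons across the inner mitochondrial membrane, and complex V, the ATP synthase, uses the resulting gradient to make ATP. Most subunits are encoded in the nucleus, and the factors NRF1, YY1 and GABP, an ETS family factor, are known to bind many of their promoters. In the intestine, absorptive cells are rich in mitochondria and oxidise glutamine and fatty acids.

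Values are the deposited log2 expression values, and a difference of 1 is 2-fold. A gene was called higher or lower where 2 arrays differed by at least 1 and the brighter value reached the 75th percentile of all genes on its array. A value was taken as above background where it exceeded the 95th percentile of 5222 negative-control features on its array, the control limit, which was 5.31 on the LncGata6 mutant, 5.19 on the Ehf knockout, 5.62 on the wild-type stem and 5.16 on the non-stem array. The medians of all genes were 3.42, 3.24, 3.43 and 3.55 on those arrays in that order, and correlations between arrays over genes ran between 0.86 and 0.96. Several checks of the labels bear on every result below. Lgr5 was above the limit on the wild-type stem array alone (9.41). Ehf stood at 3.03 on the Ehf knockout array against 6.99 on the wild-type stem array. It was also under the limit on the LncGata6 mutant (5.09) and non-stem (3.75) arrays, so a low value alone does not settle the knockout label. General epithelial markers such as Epcam and Krt8 were above the limit for 10 of 10 genes on the LncGata6 mutant array, for 0 of 10 on the Ehf knockout array and for 10 of 10 on the wild-type stem and non-stem arrays. Neutrophil granule genes were above it for 10 of 10 on the Ehf knockout array. Hepatocyte genes were above it for 11 of 11 measured and kidney tubule genes for 12 of 12 on the non-stem array, against at most 1 of each list on the other arrays. On the LncGata6 mutant array, 3 of 9 measured crypt stem cell markers were above the limit and Lgr5 stood at 3.03. The Ehf knockout, wild-type stem and non-stem arrays had 1, 6 and 2 of these 9 above it. The enterocyte list reached 12, 1, 7 and 12 of 12 on the LncGata6 mutant, Ehf knockout, wild-type stem and non-stem arrays. The T cell list reached 8, 6, 3 and 5 of 9 in the same order. Neutrophil genes reached 5 of 10 on the non-stem array. The LncGata6 mutant and Ehf knockout arrays therefore lacked most stem cell markers of their label, the Ehf knockout array also lacked epithelial markers, and the non-stem array carried markers of organs other than the intestine.

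The non-stem array had the highest and the Ehf knockout array the lowest value for nearly every respiratory chain gene. Of the 81 genes, 74 (91.4%) were highest on the non-stem array, against 45.3% of all genes, and 74 (91.4%) were lowest on the Ehf knockout array, against 47.2% of all genes. The LncGata6 mutant array was highest for 4 genes and lowest for 4, and the wild-type stem array was highest for 3 and lowest for 2. The control limit was exceeded by 62 genes on the array of LncGata6 mutant cells, by 54 on the Ehf knockout, by 59 on the wild-type stem and by 72 on the non-stem array. The 51 genes above it on all 4 arrays were the best measured. All 51 were highest on the non-stem array, against 36.2% of the 3684 genes above the limit on all 4 arrays, and 48 of the 51 (94.1%) were lowest on the Ehf knockout array, against 1472 of those 3684 genes. Another 9 genes were above the limit on no array: Ndufb2, Ndufc1, Cox4i2, Cox6a2, Cox6b2, Cox7b2, Cox8b, Cox8c and Atp5j2.

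**Figure D1:**
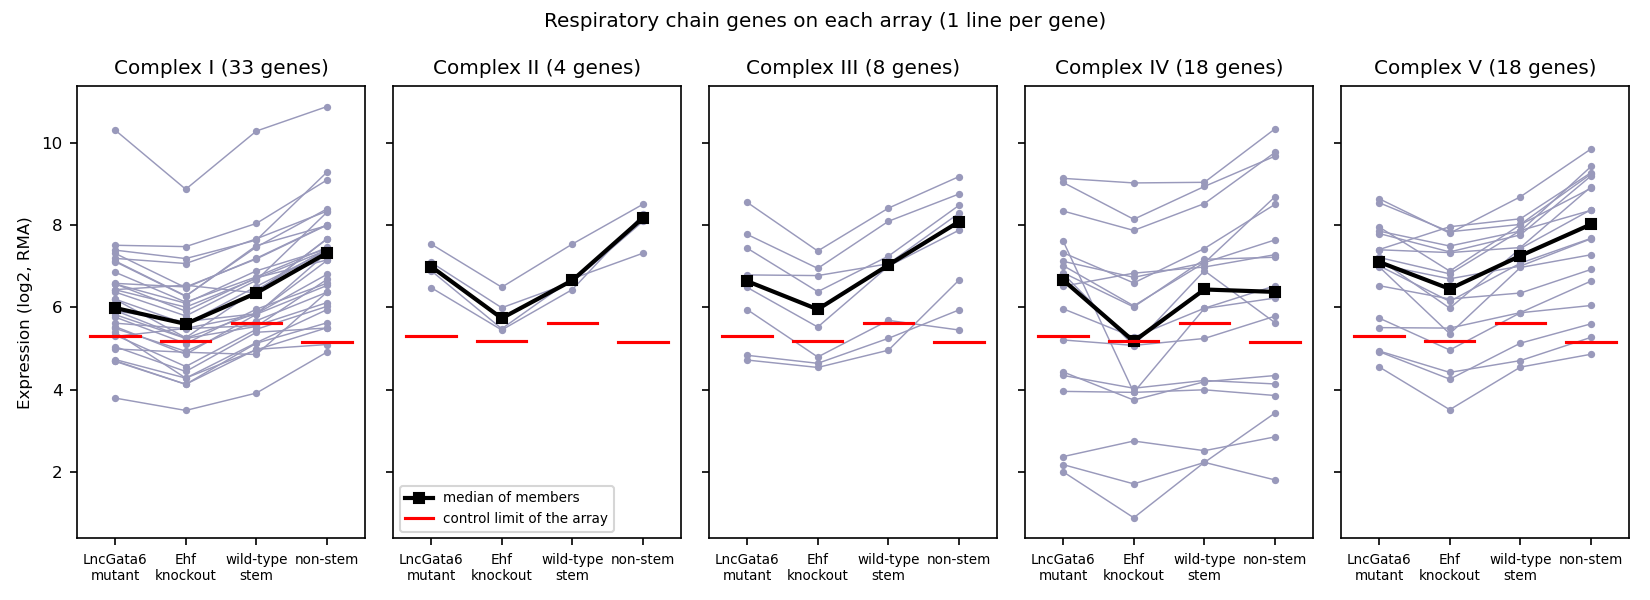
Log2 expression of the 81 respiratory chain genes on the 4 arrays, 1 panel per complex; each thin line joins the values of 1 gene, black squares are the medians of a complex and red bars the control limits of the arrays. The medians of complexes I, II, III and V are lowest on the Ehf knockout array and highest on the non-stem array. Complex IV has its highest median on the LncGata6 mutant array (6.66) and its lowest on the Ehf knockout array (5.17). The complex IV medians include isoforms under the limit on every array. Among its genes above the limit on any array, only Cox7a1 and Cox7c were higher on the LncGata6 mutant than on the non-stem array.

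Between the LncGata6 mutant and the wild-type stem array the respiratory chain genes differed little. Their median difference was -0.07, beside -0.06 for all genes, and 29 of 81 genes lay above 0 and 52 below it. Among all genes 40.8% lay above 0 and 58.4% below it. Only Cox7a1 was called higher (1 of 81, where 2.8% of all genes were called higher) and none was called lower (0 of 81, where 3.01% of all genes were). Among genes above the control limit on either array, the shares called were 11.9% higher and 11.6% lower, set against 1 and 0 of 63 respiratory chain genes. The standard deviation of the differences across those 63 genes was 0.35, against 1.04 across the 6664 genes above the limit. Between the same arrays the enterocyte list summed to 22582 units of linear intensity on the LncGata6 mutant against 2480.1 on the wild-type stem array, the T cell list to 5905 against 373, and Lgr5 had 3.03 against 9.41. The part of these cell types in the result was not tested.

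Between the Ehf knockout and the wild-type stem array 78 of 81 respiratory chain genes had the lower value on the Ehf knockout array. The same held for 68.7% of all genes. The median difference was -0.74, beside -0.20 for all genes, and of the 51 genes above the limit on all 4 arrays 50 (98.0%) were lower, against 72.8% of all such genes. A total of 17 genes were called lower (21.0% of 81, where 5.28% of all genes were called lower) and 0 higher (2.59% of all genes). Among genes above the limit on either array, 18% were called lower and 10.4% higher, beside 17 (27.9%) and 0 of 61 respiratory chain genes. A gene could enter this set through its value on 1 array alone, and the limits of the arrays differ. The shares among such genes are therefore given as a description. Of the 17 called genes, 6 differed by at least 1 under every scaling of the arrays tried: Ndufb9, Uqcrq, Cox7a1, Cox7c, Atp5g3 and Atp5o. The median difference was -0.56 when each array was centred on the median of all genes and -0.40 when centred on the median of genes above the limit on all 4 arrays.

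Between the wild-type stem and the non-stem array 76 of 81 genes had the lower value on the wild-type stem array. The same held for 59.1% of all genes. The median difference was -0.71, beside -0.11 for all genes, and all 51 genes above the limit on every array were lower, against 46.8% of the genes above it on all 4. Here 24 genes were called lower (29.6% of 81, where 7.07% of all genes were called lower) and Cox7c was called higher (1.2%, where 3.82% of all genes were). Among genes above the limit on either array the shares were 25.1% lower and 10.7% higher, beside 24 (33.3%) and 1 of 72 respiratory chain genes. Of the 24, 19 differed by at least 1 under every scaling. The hepatocyte markers summed to 1000.2 units of linear intensity on the wild-type stem array against 27192 on the non-stem array, and the kidney tubule markers to 108 against 11585. On the wild-type stem array Cps1 was the 1 hepatocyte gene of 11 above the limit. The enterocyte list summed to 2480.1 on the wild-type stem array against 6519.8 on the non-stem array. The part of these lists in this difference was not tested.

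The LncGata6 mutant array held the higher value for 76 of 81 genes when set beside the Ehf knockout array, against 62.4% of all genes. The median difference was 0.60 (0.13 for all genes). In total 14 genes were called higher (17.3% of 81, where 6.16% of all genes were called higher) and 0 lower (3.47% of all genes). Among genes above the limit on either array, 23.4% were called higher and 13% lower, beside 14 (22.2%) and 0 of 63 respiratory chain genes. The share called higher was thus close to that of all genes above the limit on either array. Differences of the 63 respiratory chain genes had a narrower spread, with a standard deviation across genes of 0.60, against 1.65 across the 7170 genes above the limit. These 14 calls and the 17 calls against the wild-type stem array share the Ehf knockout array. Neutrophil markers summed to 72 units of linear intensity on the LncGata6 mutant, 11694 on the Ehf knockout and 66 on the wild-type stem array, and general epithelial markers to 10036, 126 and 5219 units. Whether those markers account for the differences was not tested.

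**Figure D2:**
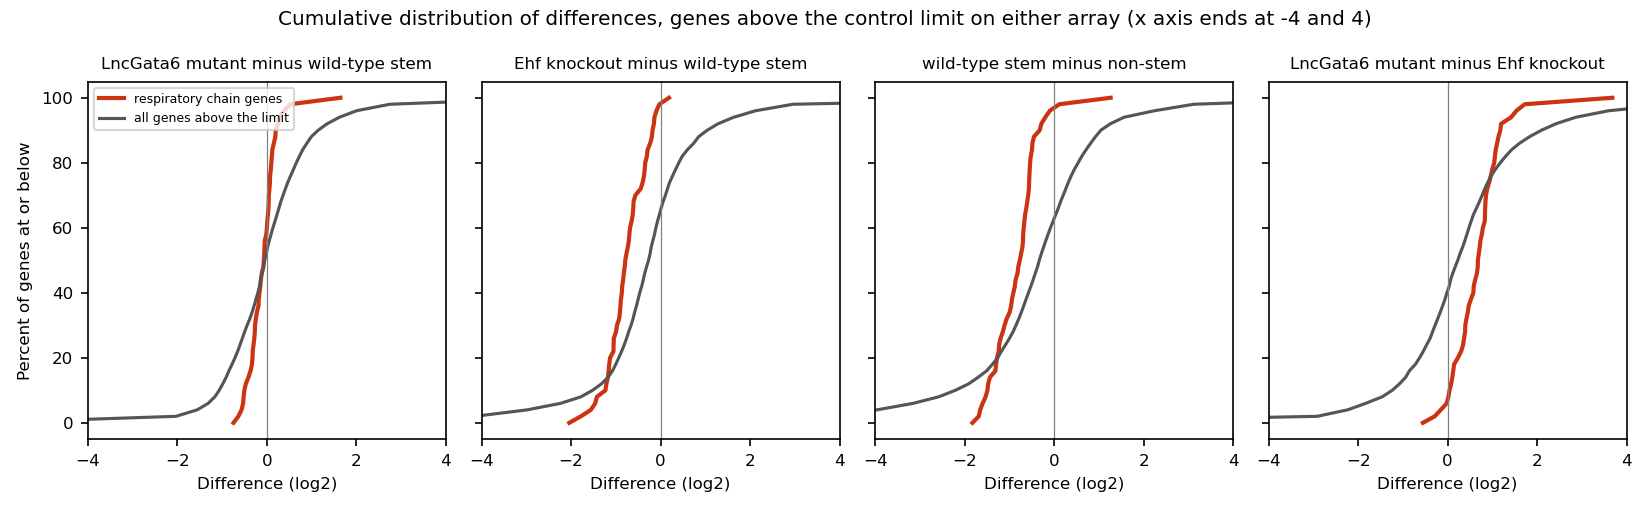
Cumulative distribution of log2 differences in the 4 comparisons, for respiratory chain genes (red) and all genes (grey) above the control limit on either array; the y axis is the percent of genes at or below a difference. The red curves are steeper than the grey in every panel and are displaced to the left in the Ehf knockout and non-stem comparisons with wild-type stem cells, and to the right in the comparison of LncGata6 mutant with Ehf knockout.

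The 5 complexes were displaced in the same direction in 3 of the comparisons and differed in extent. Ehf knockout minus wild-type stem, the median differences were -0.74 for complex I, -1.02 for complex II, -0.88 for complex III, -0.59 for complex IV and -0.64 for complex V. Wild-type stem minus non-stem, they were -0.80, -1.22, -0.82, -0.44 and -0.71 in the same order of complexes. LncGata6 mutant minus Ehf knockout, they were 0.57, 1.07, 0.89, 0.58 and 0.59. Complex II, with 4 genes, had the widest median difference in these 3 comparisons and complex IV, with its isoforms, had the narrowest in the first 2 of them as deposited. Over genes above the limit on either array, complex V was the narrowest between the Ehf knockout and wild-type stem arrays (-0.41, against -0.80 for complex IV), as it was over all genes under quantile normalization and cyclic loess. Every complex kept its sign in these comparisons under the 4 scalings. LncGata6 mutant minus wild-type stem, the medians were -0.23, 0.12, -0.25, -0.05 and -0.05, and those of complexes IV and V turned positive under some scalings, up to 0.11 and 0.21.

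**Figure D3:**
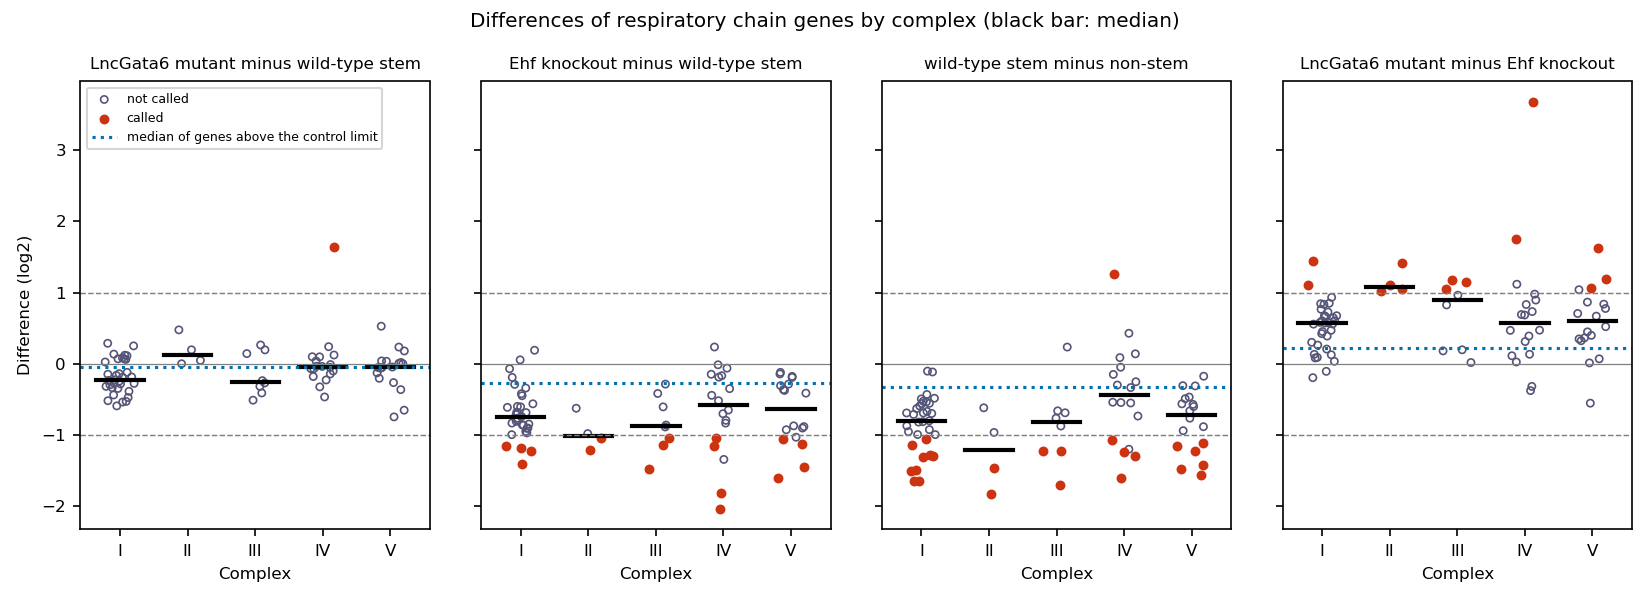
Log2 difference of every respiratory chain gene in the 4 comparisons, by complex; filled points are called, black bars are medians, dashed lines mark a difference of 1 either way and the dotted line is the median of all genes above the control limit on either array. Complex II lies farthest from 0 in the Ehf knockout, non-stem and LncGata6 mutant against Ehf knockout panels, and Cox7a1 and Cox7c of complex IV stand apart from the other points.

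Complex I takes electrons from NADH, and its core subunits carry the flavin and the iron-sulfur clusters. Ndufv1, which binds NADH and the flavin, had values of 6.20 on the LncGata6 mutant, 5.59 on the Ehf knockout, 6.36 on the wild-type stem and 7.66 on the non-stem array. Ndufs1, the largest iron-sulfur subunit, had 6.19, 5.26, 6.42 and 7.42 on those arrays. In both genes the 2 arrays of LncGata6 mutant and wild-type stem cells lay close together, the Ehf knockout array lay under them and the non-stem array over them. Ndufs1 was called lower on the Ehf knockout array (difference -1.16, 2.23-fold) and fell just short of a difference of 1 between wild-type stem and non-stem cells (-0.997). Ndufv1 was called lower on the wild-type stem than on the non-stem array (-1.30, 2.45-fold).

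All 6 core subunits measured (Ndufs1, Ndufs3, Ndufs7, Ndufs8, Ndufv1 and Ndufv2) had the lower value on the Ehf knockout array than on the wild-type stem array, with differences between -1.16 and -0.56, and on the wild-type stem array than on the non-stem array, with differences between -1.30 (Ndufv1) and -0.43 (Ndufv2). Ndufs8, which carries iron-sulfur clusters, had 7.51 on the LncGata6 mutant, 7.47 on the Ehf knockout, 8.04 on the wild-type stem and 9.09 on the non-stem array. It was the core subunit in which both mutant arrays lay together, under the wild-type stem array (-0.53 and -0.56).

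The 27 accessory subunits of complex I had a median difference of -0.69 between the Ehf knockout and the wild-type stem array and of -0.80 between the wild-type stem and the non-stem array, and all 27 were lower in the second of these comparisons. Ndufb9, an accessory subunit of the membrane arm, had 10.31 on the LncGata6 mutant, 8.87 on the Ehf knockout, 10.28 on the wild-type stem and 10.88 on the non-stem array. The Ehf knockout array alone was low for it, and Ndufb9 had the lowest difference of complex I there (-1.41, 2.67-fold). Ndufa12 (-1.23) and Ndufa10 (-1.19) were the other accessory subunits called lower on that array. Ndufa13, also known as GRIM-19, went against them: it had 6.43 on the LncGata6 mutant, 6.54 on the Ehf knockout, 6.35 on the wild-type stem and 7.67 on the non-stem array. The first 3 arrays lay within 0.19 of each other for Ndufa13, and it was the 1 respiratory chain gene above the limit with a positive difference on the Ehf knockout array (0.19).

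Ndufa9, an accessory subunit at the ubiquinone-reducing module, had 6.37 on the LncGata6 mutant, 5.79 on the Ehf knockout, 6.65 on the wild-type stem and 8.31 on the non-stem array. The non-stem array stood apart from the other 3, and the difference of wild-type stem minus non-stem (-1.66, 3.15-fold) was the lowest of complex I. Ndufa4, which later work assigned to complex IV, came next (-1.65, 3.14-fold), with 7.39, 7.18, 7.63 and 9.28 on the arrays in the same order. The other complex I genes called lower in this comparison were Ndufb8 (-1.51), Ndufb11 (-1.49), Ndufa13 (-1.32), Ndufv1 (-1.30), Ndufb6 (-1.28), Ndufa1 (-1.14) and Ndufs8 (-1.06). Ndufb8 (at least 1.67-fold) and Ndufa1 (at least 2.08-fold) lay under the limit on the wild-type stem array, so their folds are lower bounds. Ndufb3 (1.11, but only at least 1.15-fold since it lay under the limit on the Ehf knockout array) joined Ndufb9 (1.44) among the 2 genes of complex I called higher on the LncGata6 mutant than on the Ehf knockout array. The other accessory subunits of complex I differed by less than 1 in all 4 comparisons.

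Complex II, succinate dehydrogenase, is the enzyme that the respiratory chain shares with the citrate cycle. Sdha, the flavoprotein that oxidises succinate, had 6.48 on the LncGata6 mutant, 5.45 on the Ehf knockout, 6.43 on the wild-type stem and 8.26 on the non-stem array. Sdhb, the iron-sulfur subunit, had 7.09, 5.99, 6.61 and 8.09 in that order. For both catalytic subunits the non-stem array was well above the other 3, and wild-type stem minus non-stem gave -1.83 for Sdha (3.54-fold, the lowest difference of all 81 genes) and -1.47 for Sdhb (2.78-fold).

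Sdhc and Sdhd are the membrane anchors of complex II. Sdhc had 6.89 on the LncGata6 mutant, 5.48 on the Ehf knockout, 6.69 on the wild-type stem and 7.31 on the non-stem array, and Sdhd had 7.54, 6.49, 7.54 and 8.50. They were called lower on the Ehf knockout array (-1.22 for Sdhc and -1.05 for Sdhd) and not on the wild-type stem array against the non-stem array (-0.62 and -0.97). Sdha (-0.98) and Sdhb (-0.63) fell short of a difference of 1 on the Ehf knockout array. Several of these differences lie close to 1 in size, and neither anchor kept a difference of 1 on the Ehf knockout array under every scaling. All 4 genes of complex II were called higher on the LncGata6 mutant than on the Ehf knockout array, with differences of 1.03 for Sdha, 1.10 for Sdhb, 1.41 for Sdhc and 1.05 for Sdhd. Of these, Sdhc differed by at least 1 under every scaling.

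Complex III passes electrons from ubiquinol to cytochrome c. Uqcrfs1, the Rieske iron-sulfur protein, had 5.94 on the LncGata6 mutant, 4.79 on the Ehf knockout, 5.68 on the wild-type stem and 5.45 on the non-stem array. It was the 1 gene of complex III with a higher value on the wild-type stem than on the non-stem array (0.23), it lay under the limit on the Ehf knockout array, and it was called higher on the LncGata6 mutant than on the Ehf knockout array (1.15, at least 1.69-fold). The core proteins Uqcrc1 and Uqcrc2 followed the other genes. Uqcrc1 had 7.44, 6.38, 7.24 and 8.48, and Uqcrc2 had 7.77, 6.94, 8.09 and 8.75 on the 4 arrays in the same order. Uqcrc1 was called lower on the wild-type stem than on the non-stem array (-1.23), and Uqcrc2 on the Ehf knockout than on the wild-type stem array (-1.14).

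Among the small subunits of complex III, Uqcrq had 6.48 on the LncGata6 mutant, 5.52 on the Ehf knockout, 6.996 on the wild-type stem and 7.87 on the non-stem array. Its difference on the Ehf knockout array was the lowest of the complex (-1.48, 2.78-fold), and it was also the lowest of the complex on the LncGata6 mutant array (-0.51, not called). Uqcrb was called lower on the Ehf knockout array (-1.04) and higher on the LncGata6 mutant than on the Ehf knockout array (1.18). Uqcr10 had 4.72, 4.54, 4.96 and 6.66, so it was measured above the limit on the non-stem array alone, and it was called lower on the wild-type stem array (-1.70, at least 2.05-fold). Uqcrh, the hinge protein that helps dock cytochrome c, had values of 6.79, 6.77 and 7.06 on the LncGata6 mutant, Ehf knockout and wild-type stem arrays and 8.28 on the non-stem array, and it was called lower on the wild-type stem than on the non-stem array (-1.23). Its sign between the Ehf knockout and wild-type stem arrays depended on the scaling. Uqcr11, a small subunit, was called in no comparison.

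Complex IV, cytochrome c oxidase, has several subunits with isoforms that are used in different tissues. The isoforms known as ubiquitous were measured above the limit on all 4 arrays: Cox4i1, Cox6a1, Cox6b1, Cox7a2, Cox7b and Cox8a. The alternative forms Cox4i2 (known from lung), Cox6a2 and Cox8b (heart and muscle), Cox6b2, Cox7b2 and Cox8c (testis) were above it on none, with values between 0.89 and 4.43. Cox7a1, the form known from heart, skeletal muscle and brown fat, was the exception. It had 7.61 on the LncGata6 mutant, 3.93 on the Ehf knockout, 5.97 on the wild-type stem and 6.22 on the non-stem array, so it lay above the limit on all but the Ehf knockout array and was highest on the LncGata6 mutant array.

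Cox7a1 was called in 3 comparisons, 2 of them against an Ehf knockout value under the limit, where its fold is a lower bound. It was called higher on the LncGata6 mutant than on the wild-type stem array (1.64, 3.12-fold), lower on the Ehf knockout than on the wild-type stem array (-2.04, at least 1.72-fold) and higher on the LncGata6 mutant than on the Ehf knockout array (3.68, at least 5.36-fold), each under every scaling. Striated muscle markers were above the limit for 1 of 11 measured genes on the LncGata6 mutant array (Acta1) and for 0 of 11 on the others, and their summed intensity lay between 125 and 165 units. Brown fat markers were above it for 1 of 6 genes on the LncGata6 mutant array (Ppargc1a) and for 0 of 6 on the Ehf knockout and wild-type stem arrays. On the non-stem array 3 of 6 were above it (Ucp1, Ppargc1a and Elovl3). The enterocyte list summed to 22582 units on the LncGata6 mutant, 172 on the Ehf knockout, 2480.1 on the wild-type stem and 6519.8 on the non-stem array, and the T cell list to 5905, 719, 373 and 543 units. Both sums were highest on the array where Cox7a1 was highest, and their part in its value was not tested.

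Cox7a2, the other form of the same subunit, had 7.12 on the LncGata6 mutant, 6.73 on the Ehf knockout, 7.08 on the wild-type stem and 8.68 on the non-stem array. It differed by 0.04 between the LncGata6 mutant and wild-type stem arrays, where Cox7a1 differed by 1.64, and by -1.61 (3.05-fold, called) between the wild-type stem and non-stem arrays, where Cox7a1 differed by -0.25 with a sign that flipped under scaling. The 2 forms thus separated different arrays. Cox7a2l, a related protein that joins complexes III and IV into supercomplexes and is not an oxidase subunit, had 6.51, 6.83, 6.98 and 7.28 in the same order and was called in no comparison.

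Cox7c, a small subunit with no tissue form in these data, ran against its complex. It had 6.82 on the LncGata6 mutant, 5.07 on the Ehf knockout, 6.89 on the wild-type stem and 5.62 on the non-stem array. The LncGata6 mutant and wild-type stem arrays were high and the other 2 low for Cox7c, so it was called higher on the wild-type stem than on the non-stem array (1.26, 2.40-fold), the reverse of 76 of the 81 genes. It was also called lower on the Ehf knockout array (-1.82, at least 3.24-fold) and higher on the LncGata6 mutant than on the Ehf knockout array (1.75, at least 3.09-fold). These 3 calls held under every scaling.

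**Figure D4:**
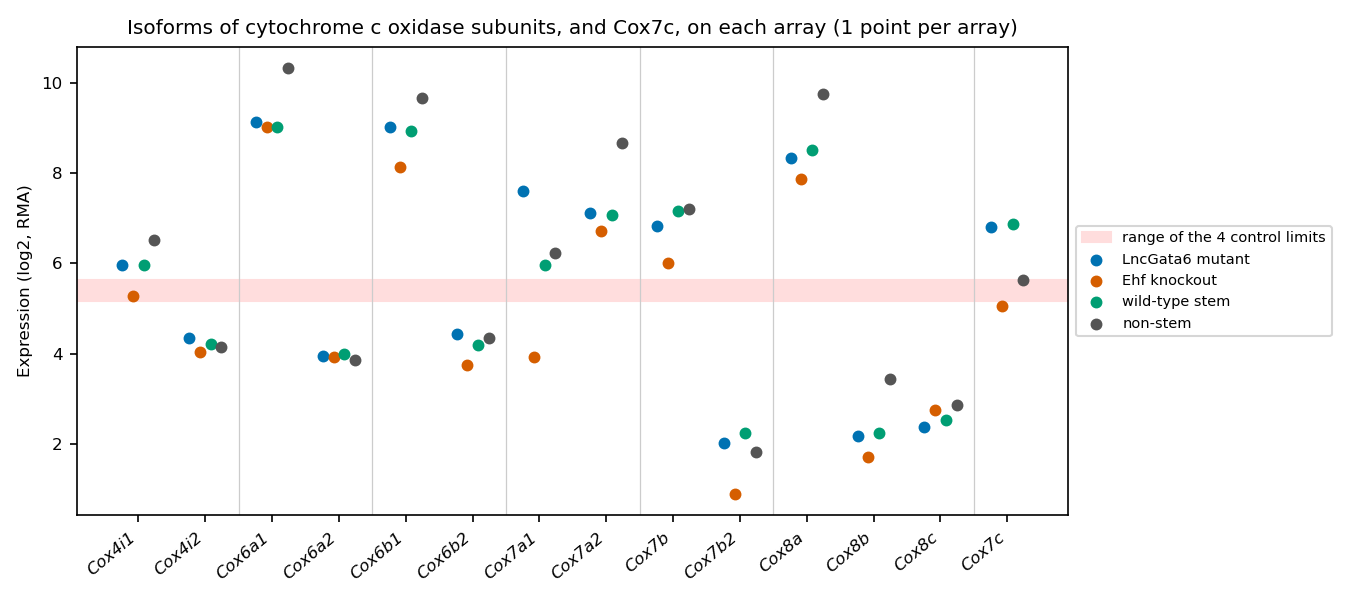
Log2 expression of the isoform groups of complex IV subunits and of Cox7c on each array (1 point per array, coloured by group), with the range of the 4 control limits as a band. The tissue forms other than Cox7a1 lie under the band on every array, Cox7a1 is highest on the LncGata6 mutant array (7.61), and Cox7c is lower on the Ehf knockout (5.07) and non-stem (5.62) arrays than on the other 2.

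Among the other subunits of complex IV, Cox4i1 had 5.96 on the LncGata6 mutant, 5.27 on the Ehf knockout, 5.98 on the wild-type stem and 6.52 on the non-stem array and was called in no comparison. Cox5a, which neighbours it, had 7.01, 6.03, 7.08 and 7.64 and was called lower on the Ehf knockout array (-1.05). Cox5b, which binds zinc, had 7.32, 6.59, 7.43 and 8.50 and was called lower on the wild-type stem than on the non-stem array (-1.07). These 3 kept the general order of the arrays. Cox6a1 had 9.13 on the LncGata6 mutant, 9.02 on the Ehf knockout, 9.04 on the wild-type stem and 10.34 on the non-stem array. Its 3 GFP-positive arrays lay within 0.11 of each other, so like Ndufa13 it stood close to the wild-type stem value on the Ehf knockout array (-0.02, with a sign that flipped under scaling). It was called lower on the wild-type stem than on the non-stem array (-1.30). Cox8a was also called lower there (-1.24), and Cox7b was called lower on the Ehf knockout array (-1.16). Cox6b1 and Cox6c were called in no comparison.

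Complex V, the ATP synthase, has a catalytic head, a stalk and a membrane ring. Atp5a1, the alpha subunit of the head, had 8.64 on the LncGata6 mutant, 7.80 on the Ehf knockout, 8.68 on the wild-type stem and 9.85 on the non-stem array. Atp5b, the catalytic beta subunit, had 7.85, 7.49, 7.85 and 9.42. LncGata6 mutant minus wild-type stem gave -0.05 for Atp5a1 and -0.001 for Atp5b, so these arrays lay together, and both genes were called lower on the wild-type stem than on the non-stem array (-1.16 for Atp5a1 and -1.57, 2.97-fold, for Atp5b, the lowest of the complex). On the Ehf knockout array the 2 partners of the head parted in extent, at -0.88 for Atp5a1 and -0.36 for Atp5b, and neither was called. Atp5d and Atp5e of the central stalk were called in no comparison, and Atp5c1 is not analysed here.

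In the peripheral stalk, Atp5o, the subunit that ties the stalk to the head, had 6.98 on the LncGata6 mutant, 5.36 on the Ehf knockout, 6.97 on the wild-type stem and 7.28 on the non-stem array. The Ehf knockout array alone was low for Atp5o, and the difference there was the lowest of complex V (-1.61, 3.05-fold); LncGata6 mutant minus Ehf knockout gave 1.63 (3.09-fold). Its partners in the stalk were closer together: Ehf knockout minus wild-type stem was -0.93 for Atp5f1 (named Atp5pb in RefSeq), -0.14 for Atp5h and -0.29 for Atp5j, and none of them was called in any comparison.

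The proton-carrying ring of complex V is built from 1 protein that Atp5g1, Atp5g2 and Atp5g3 all encode. The features used for the 3 genes did not move alike. Atp5g1 had 7.21 on the LncGata6 mutant, 6.81 on the Ehf knockout, 7.86 on the wild-type stem and 8.36 on the non-stem array. Atp5g2 had 7.40, 7.96, 8.15 and 9.27, and Atp5g3 had 7.16, 5.98, 7.43 and 8.37 in that order. On the Ehf knockout array Atp5g3 (-1.45, 2.73-fold) and Atp5g1 (-1.05) were called lower and Atp5g2 was not (-0.19, with a sign that flipped under scaling). On the LncGata6 mutant array Atp5g2 (-0.75) and Atp5g1 (-0.65) had the lowest differences of the 81 genes against the wild-type stem array, and neither was called. The feature used for Atp5g2 is placed on another chromosome than the gene in RefSeq, so it may read a near-identical copy. The feature on the gene's own chromosome gave 7.44, 7.88, 8.08 and 9.36, the same order of arrays. A feature that carries the symbols of both Gm10231 and Atp5g2 gave 6.41, 6.03, 7.03 and 7.47, with the Ehf knockout array lowest. Whether Atp5g2 itself held its value on that array is therefore not settled.

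The smaller membrane subunits of complex V held further calls. Atp5mpl was called lower on the Ehf knockout array (-1.13) and higher on the LncGata6 mutant than on the Ehf knockout array (1.07). Atp5md, also known as DAPIT, which helps the synthase form dimers, had 8.54 on the LncGata6 mutant, 7.83 on the Ehf knockout, 8.01 on the wild-type stem and 9.24 on the non-stem array. Its difference on the LncGata6 mutant array (0.53) was the highest of complex V, and it was called lower on the wild-type stem than on the non-stem array (-1.23). Atp5l was called lower there too (-1.43), but its feature is placed on another chromosome than the gene, the brighter of its features on the gene's own chromosome stayed under the limit (4.53, 4.07, 4.71 and 4.77), and Atp5l2, which RefSeq lists as a pseudogene of it, had nearly the same pattern (-1.47). Copies of Atp5l cannot be separated here. Atp5k was called in no comparison, and neither was Atp5sl, which RefSeq names Dmac2 and which is not a subunit of the synthase.

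To set the promoters beside these values, the RefSeq windows of GRCm38.p6 that run from 250 bases before to 50 bases after a gene's start were searched on both strands, for the 66 of 81 genes that had one. The NRF1 core CGCATGCG was in 7 of 66 windows (10.6%), against 2.54% of 17486 windows of protein-coding genes. The ETS motif CCGGAAG was in 16 (24.2%, against 11.9%), and the YY1 core AAGATGGC in 10 (15.2%, against 3.23%). A longer NRF1 motif of 10 bases that contains the core was in 4 windows (6.1%, against 1.32%), and a longer YY1 motif of 11 bases that contains its core in 5 (7.6%, against 0.97%). The TATA box letters TATAAA were in 8 (12.1%), against 13.34%. NRF1, YY1 and ETS letters thus stood in respiratory chain promoters more often than in coding promoters at large, with no test made, and TATA letters did not. The YY1 core was in 7 of 30 windows of complex I, in 3 of 15 of complex V and in none of the 3 of complex II, 5 of complex III and 13 of complex IV, counts too small to compare. The upstream 120 bases are printed 5′ to 3′ on the gene's strand for 6 genes. Cox7a1, Cox7a2 and Cox7c are shown because they parted from their complex or from each other. Atp5g2 and Cox6a1 are shown because the features used for them held their value on the Ehf knockout array. Sdhd is shown because its feature did not. Capitals mark the NRF1 core in Atp5g2 and the ETS motif, read on the opposite strand, in Cox6a1 and Sdhd.
Cox7a1: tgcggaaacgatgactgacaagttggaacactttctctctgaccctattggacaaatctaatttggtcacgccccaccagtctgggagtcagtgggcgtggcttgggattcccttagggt
Cox7a2: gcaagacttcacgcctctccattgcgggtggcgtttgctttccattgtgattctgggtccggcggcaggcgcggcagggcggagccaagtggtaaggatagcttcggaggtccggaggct
Cox7c: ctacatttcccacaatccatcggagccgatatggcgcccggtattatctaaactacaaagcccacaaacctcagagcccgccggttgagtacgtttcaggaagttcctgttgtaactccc
Atp5g2: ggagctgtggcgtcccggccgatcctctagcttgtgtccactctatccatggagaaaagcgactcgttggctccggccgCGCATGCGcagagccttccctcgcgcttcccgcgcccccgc
Cox6a1: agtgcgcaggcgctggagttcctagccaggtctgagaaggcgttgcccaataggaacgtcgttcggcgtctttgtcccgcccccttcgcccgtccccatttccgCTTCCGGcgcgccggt
Sdhd: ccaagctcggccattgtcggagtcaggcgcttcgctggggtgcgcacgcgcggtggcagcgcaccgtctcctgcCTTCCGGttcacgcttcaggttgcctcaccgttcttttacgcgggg
The windows lie at chr7:30184051-30184170 (plus strand) for Cox7a1, chr9:79759854-79759973 (minus strand) for Cox7a2, chr13:86046796-86046915 (minus strand) for Cox7c, chr15:102671048-102671167 (minus strand) for Atp5g2, chr5:115348959-115349078 (minus strand) for Cox6a1 and chr9:50603850-50603969 (minus strand) for Sdhd. The 3 Cox7 windows hold no NRF1, ETS or TATA letters of those searched in these 120 bases, while the other 3 hold 1 marked stretch each. Counted from the start, with -1 as the last upstream base, the first marked base is at -41 in Atp5g2, -16 in Cox6a1 and -46 in Sdhd. The stretch in Atp5g2 is part of the longer NRF1 motif, which begins at -42. The YY1 cores found began between -3 and 38, so none lies wholly in the upstream 120 bases of any gene.

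The values of genes with and without each motif were set side by side in all 4 comparisons. Ehf knockout minus wild-type stem, the median was -0.59 for the 16 genes with the ETS motif and -0.82 for the 50 without it, -0.61 for the 7 with the NRF1 core and -0.74 for the 59 without, and -0.84 for the 10 with the YY1 core and -0.68 for the 56 without. Wild-type stem minus non-stem, the medians were -1.01 with and -0.68 without the ETS motif, -1.12 with and -0.70 without the NRF1 core, and -0.62 with and -0.78 without the YY1 core. LncGata6 mutant minus wild-type stem, they were 0.02 with and -0.14 without the ETS motif, -0.13 with and -0.12 without the NRF1 core, and -0.20 with and -0.11 without the YY1 core. LncGata6 mutant minus Ehf knockout, they were 0.46 and 0.60, 0.20 and 0.60, and 0.58 and 0.59 for the same motifs. The widest gaps were those of the NRF1 core in the last comparison and in wild-type stem minus non-stem. They rest on 7 genes with the core, and no gap was tested.

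The regulators of these genes were mostly dim. Of 14 measured regulators of mitochondrial genes, 4 were above the control limit on either array in the comparison of LncGata6 mutant with wild-type stem cells and 7 in that of wild-type stem with non-stem cells. Nrf1 was under the limit on all 4 arrays (4.36, 4.38, 4.52 and 4.22). Ppargc1a, the coactivator that drives mitochondrial gene expression, had 6.76 on the LncGata6 mutant, 2.73 on the Ehf knockout, 5.20 on the wild-type stem and 7.08 on the non-stem array. It was above the limit on the LncGata6 mutant and non-stem arrays and under it on the other 2. Ppargc1a was called higher on the LncGata6 mutant than on the wild-type stem array (1.56), where the respiratory chain genes had a median difference of -0.07, while its wild-type stem value lay under the limit. It was also called lower on the Ehf knockout than on the wild-type stem array (-2.47, both values under the limit) and lower in wild-type stem than in non-stem cells (-1.87), the directions of the respiratory chain medians. Hnf4a, a gut and liver transcription factor, had 7.75, 4.57, 7.31 and 8.16 in the same order of arrays.

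Cytochrome c and the cytochrome of complex III fall outside the symbol families. Cycs, cytochrome c, had 10.15 on the LncGata6 mutant, 6.86 on the Ehf knockout, 8.95 on the wild-type stem and 8.85 on the non-stem array, and was called higher on the LncGata6 mutant than on the wild-type stem array (1.21) and lower on the Ehf knockout array (-2.08). Cyc1, cytochrome c1, had 7.06, 5.99, 7.23 and 8.05 and was called lower on the Ehf knockout array (-1.24). Cyc1 kept the order of the respiratory chain genes, and Cycs shared its highest array with Cox7a1. Of the mitochondrial genome, 2 genes were measured, both of RNAs: the ribosomal RNA mt-Rnr1 had 12.56, 11.79, 12.45 and 12.31, and the transfer RNA mt-Tk had 7.71, 6.78, 9.11 and 5.89. Neither was highest on the non-stem array.

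Other mitochondrial lists gave a partly different picture. The citrate cycle list had median differences of -0.33 (LncGata6 mutant minus wild-type stem), -0.98 (Ehf knockout minus wild-type stem) and -0.94 (wild-type stem minus non-stem). In each of the last 2 comparisons 7 of 14 measured genes were called lower, where 5.28% and 7.07% of all genes were. Fatty acid oxidation enzymes had 0.12, -0.99 and -1.63 in the same order. Between the wild-type stem and the non-stem array 13 of 16 were called lower, among them Acadm (-3.24), beside 7.07% of all genes. Respiratory chain assembly factors had -0.28, -0.54 and -0.45 over 34 genes, of which at most 14 were above the limit. The median difference between the wild-type stem and the non-stem array was thus wider for fatty acid oxidation than for the respiratory chain (-0.71). These lists stand beside the same liver, kidney and enterocyte markers.

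Ribosomal proteins and glycolysis differed from the respiratory chain in some comparisons and not in others. Mitochondrial ribosomal proteins had medians of -0.38, -0.64 and -0.34 over 75 genes. On the Ehf knockout array 71 of the 75 lay under their wild-type stem value, beside 68.7% of all genes. There 11 were called lower, where 5.28% of all genes were, and 28 of the 75 were above the limit on either array. In wild-type stem against non-stem cells 1 was called lower, where 7.07% of all genes were, and 51 were above it. Cytosolic ribosomal proteins had -0.79, -0.27 and 0.40 over 44 genes. In LncGata6 mutant against wild-type stem cells 6 were called lower, where 3.01% of all genes were. In wild-type stem against non-stem cells 2 were called higher, where 3.82% of all genes were. Of the 44, 28 were above the limit on either array in the first of these comparisons and 33 in the second. Glycolysis enzymes had 0.13, -0.12 and -0.96 over 12 measured genes. In that list 2 genes, among them Hk2 (2.44), were called higher in wild-type stem than in non-stem cells, and 6 were called lower. Among all genes 3.82% were called higher there and 7.07% lower.

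**Figure D5:**
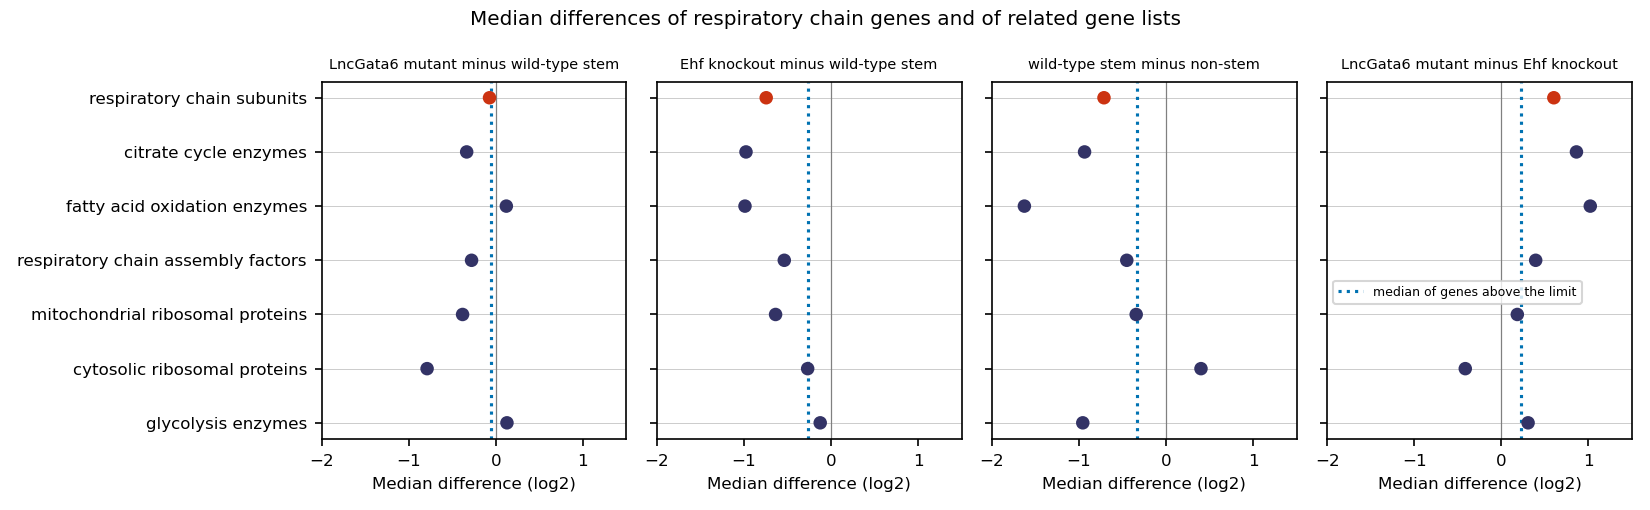
Median log2 difference of the 81 respiratory chain genes (red) and of 6 related gene lists in the 4 comparisons; the dotted line is the median of all genes above the control limit on either array. The respiratory chain lies between the citrate cycle and the mitochondrial ribosomal proteins in the Ehf knockout and non-stem comparisons with wild-type stem cells, and cytosolic ribosomal proteins lie on the other side of 0 in the non-stem comparison (0.40).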

How the data were processed

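The deposited series table holds 1 value per feature and array on the log2 scale, between -0.183 and 13.1. For these log2 values the submitters' processing notes name Affymetrix Power Tools and RMA without a version. RMA compresses differences of dim features, and the deposited values were used as they are. No genome build is given for the array.

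Of 72688 features, 31258 had 1 gene symbol, 1492 several and 39938 none. Symbols were updated through RefSeq, giving 30701 genes, and the brightest feature stood for each gene. Differences of log2 values, counts and medians were computed with Python 3.11.15, pandas 2.3.3 and numpy 2.4.6. Quantile normalization and cyclic loess used R 4.3.3 with limma 3.58.1, and the centrings on medians used Python. Folds are brighter over dimmer, and a dimmer value under the control limit was replaced by that limit ("at least"). The rule for calls was tested on simulated data with an assumed noise, which does not measure the noise of these arrays.

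Named are the core subunits, the highest and lowest difference of each complex, tissue isoforms, called genes and genes that ran against their complex, plus up to 4 genes of each other list. The members and lists were chosen with earlier results of these data known. The number of arrays limits the precision. Promoter sequences are from RefSeq, GRCm38.p6.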

Additional observations from a re-analysis of the deposited data

Results flagged for a closer look

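Several features of respiratory chain genes carry the symbols of 2 genes and entered no comparison, yet lay above the control limit of the non-stem array (5.16). The feature of Cox5b and Gm11273 had 4.67 on the LncGata6 mutant, 3.04 on the Ehf knockout, 4.62 on the wild-type stem and 5.27 on the non-stem array. The feature of Gm10231 and Atp5g2 had 6.41, 6.03, 7.03 and 7.47 in the same order. That of Ndufa11 and Ndufa11b, an accessory subunit of complex I and its copy, had 6.16, 5.38, 5.99 and 6.40, and that of Ndufb4 and Gm3244 had 5.04, 4.99, 5.08 and 6.19. All 4 were lowest on the Ehf knockout and highest on the non-stem array.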

How the results depend on the processing

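No paired analysis was possible because each group has 1 array, and for the same reason no array could be left out. Over 4 scalings (centring on the median of all genes, centring on the median of genes above the control limit on all 4 arrays, quantile normalization and cyclic loess) and 7 other choices, 91 results under an alternative kept their direction with a count within 1.5 times or a median within 0.1, while 23 moved further and 2 changed sign. In the Ehf knockout against wild-type stem cells, 17 genes were called lower as deposited and 8, 6, 6 and 6 under the scalings in that order, and the median of -0.74 became -0.56, -0.40, -0.40 and -0.40. For LncGata6 mutant against Ehf knockout, 14 genes called higher became 7, 5, 6 and 8, and the median of 0.60 became 0.43, 0.40, 0.30 and 0.41. For wild-type stem against non-stem cells, the median of -0.71 became -0.60 with centring on all genes and -0.48 with quantile normalization. For LncGata6 mutant against wild-type stem cells, the median of -0.07 changed sign, to 0.066 with centring on genes above the limit and 0.041 with cyclic loess. A 1.5-fold limit gave 3 genes lower on the LncGata6 mutant (0 at 2-fold), 49 lower on the Ehf knockout, 50 lower on the wild-type stem than on the non-stem array and 37 higher on the LncGata6 mutant than on the Ehf knockout array. Without the tissue isoforms of complex IV, a set chosen after seeing the data, 0 genes were called higher on the LncGata6 mutant array (1 with Cox7a1). The centrings shift whole arrays, while quantile normalization and cyclic loess move genes by different amounts, and what made the arrays' levels differ was not tested. The sign of 19, 16, 8 and 17 genes flipped under some scaling in the LncGata6 mutant, Ehf knockout, wild-type stem against non-stem and LncGata6 mutant against Ehf knockout comparisons. Dim genes have compressed differences, and those under the limit on both arrays have no measured fold.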
